A study of Mus musculus with 8 samples.

Results

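The genes of mouse chromosome 8 were followed in the order in which they lie on the chromosome, in retinas of aged mice labelled Mrp4-null and wild-type. A probe of the array belonged to the set when the transcript accession that the array design gives it matched a gene of chromosome 8 in the RefSeq gene table, and 26 genes were left out by the rule. Of the 2381 genes that the table places on this chromosome, 1099 had a probe, and the set held 1073 genes with 1528 probes, among 22911 genes and 56605 probes on the whole array. Of the 1073 genes, 947 were protein-coding, 115 were long non-coding RNAs, 10 were transcribed pseudogenes and 1 was an RNase P RNA. The chromosome was selected on its number of genes called in this same comparison of genotypes, so the counts and differences below are descriptions and not a test of the chromosome.

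Total retinal RNA was labelled with Cy3 and hybridized to one-color Agilent arrays, 1 array a sample. The 4 samples labelled Mrp4-null (Test 1 to 4) came from mice homozygous for a knockout of Mrp4, for which the methods give a C57BL/6J background. The 4 wild-type samples (Control 1 to 4) came from mice whose strain and relation to the knockout line are not given in the sources used here. Both groups were 46 to 55 weeks old by the labels. No treatment was given for either group, and the methods name tissue of 3 mice without saying whether a sample pooled them. Nothing states that the samples of a group came from separate animals, so p-values measure the spread between these samples, which may be technical. The arrays shared 1 slide, with the genotypes in different rows, so the slide's row and the genotype cannot be told apart.

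MRP4 is an efflux pump of the ABC transporter family, encoded by Abcc4 on chromosome 14. The Abcc4 probe read 10.84, 10.71, 10.64 and 10.80 (normalized log2 signal) in the samples labelled Mrp4-null, against 6.62, 7.13, 6.54 and 7.02 in those labelled wild-type. The targeted gene was thus higher, not lower, on the arrays labelled Mrp4-null, and the part of the transcript that was deleted relative to this probe is not given in the sources used here. Every direction below is therefore that of the labels, and each rise and fall would be reversed if the genotype labels were exchanged. The 7 marker genes of rods, the main cells of this tissue, averaged 16.31 to 16.43 on arrays with the Mrp4-null label and 16.30 to 16.40 on the wild-type arrays. Marker levels of 4 ciliary body genes did not overlap, at 8.36 to 9.51 against 7.58 to 8.08, and none of the 4 was called by limma with all arrays. Best2 was called by the local pooled error test that the methods name, here with adjusted p-values, and Wfdc1 when Mrp4-null array 4 was left out. Best2 and Wfdc1 lie on chromosome 8 themselves, and the part of ciliary body tissue in the results was not tested. The 9 lens genes averaged 6.50 to 9.26 against 8.02 to 10.59, with overlap and no call by limma with all arrays. Whether the local pooled error test calls any of them is not given here, and the part of lens tissue was not tested. Xist, the RNA that coats the inactive X chromosome of female cells, rose well above background for each sample labelled Mrp4-null (9.21 to 10.60) but for only 2 of the 4 wild-type samples. With the Xist level as a covariate, 10 of the 28 genes called below were still called, 1 higher (Gm5741) and 9 lower. The other 8 genes called higher, Col4a1, Col4a2, Rnaseh2a, Tnpo2, N4bp1, Snx20, Nod2 and Ccl17, lost the call in that fit, as did the lower genes Stxbp2, Map2k7, Snapc2, Kbtbd11, Ckap2, Tbc1d9, Podnl1, Hook2, Wdr83os and Kifc3. Their differences stayed near those without the covariate, at 0.63 to 1.06 against 0.63 to 1.17 on the log2 scale for these 8 higher genes and -2.03 to -0.55 against -2.13 to -0.62 for these 10 lower ones.

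Mouse chromosome 8 carries several families of neighbouring genes, among them the defensins, which are small antimicrobial peptides, the carboxylesterases, which split ester bonds of lipids and drugs, and the metallothioneins, which bind zinc and copper. Neighbouring genes can share a stretch of regulatory DNA. The best known pair of this kind here is Col4a1 and Col4a2, which encode the chains of the main type IV collagen of basement membranes and are read in opposite directions from a common start region. RefSeq promoter windows of 300 bases (GRCm38.p6) were found for 22 of the 28 called genes, in 25 windows, and Kbtbd11, Rnf150, Podnl1, Gadd45gip1, Snx20 and Kifc3 had none in that table. The Col4a1 window lies at chr8:11312777-11313076 on the minus strand and the Col4a2 window at chr8:11312555-11312854 on the plus strand. Both are shown because they share 78 bases, each as the reverse complement of the other, which stand in capitals.
Col4a1: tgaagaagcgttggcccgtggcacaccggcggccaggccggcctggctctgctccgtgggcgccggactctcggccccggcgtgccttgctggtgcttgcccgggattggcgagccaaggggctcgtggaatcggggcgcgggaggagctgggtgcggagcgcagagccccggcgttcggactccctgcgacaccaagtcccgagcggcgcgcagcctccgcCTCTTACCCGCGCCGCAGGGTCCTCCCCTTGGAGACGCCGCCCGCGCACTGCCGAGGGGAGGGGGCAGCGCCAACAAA
Col4a2: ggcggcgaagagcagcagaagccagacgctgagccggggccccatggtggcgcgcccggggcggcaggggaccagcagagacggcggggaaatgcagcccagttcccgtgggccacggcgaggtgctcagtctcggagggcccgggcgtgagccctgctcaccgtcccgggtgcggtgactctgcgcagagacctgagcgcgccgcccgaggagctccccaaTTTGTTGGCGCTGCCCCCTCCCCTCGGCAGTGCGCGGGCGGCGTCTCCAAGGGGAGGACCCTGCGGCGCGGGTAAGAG

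The next windows belong to Ctxn1 (chr8:4259225-4259524, minus strand) and Timm44 (chr8:4275856-4276155, minus strand), direct neighbours that fell together, and to the long non-coding RNA Crnde (chr8:92356071-92356370, minus strand), each of which kept its call under every alternative run. Capitals mark the letters GGGCGG or CCAAT on either strand, the only ones of the 5 motifs searched that these windows hold.
Ctxn1: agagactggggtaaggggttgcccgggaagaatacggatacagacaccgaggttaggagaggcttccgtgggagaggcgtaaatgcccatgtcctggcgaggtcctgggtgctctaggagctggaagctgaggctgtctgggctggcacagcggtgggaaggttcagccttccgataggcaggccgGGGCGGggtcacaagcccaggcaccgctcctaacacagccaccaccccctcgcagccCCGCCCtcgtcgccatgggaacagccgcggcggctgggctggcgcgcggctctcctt
Timm44: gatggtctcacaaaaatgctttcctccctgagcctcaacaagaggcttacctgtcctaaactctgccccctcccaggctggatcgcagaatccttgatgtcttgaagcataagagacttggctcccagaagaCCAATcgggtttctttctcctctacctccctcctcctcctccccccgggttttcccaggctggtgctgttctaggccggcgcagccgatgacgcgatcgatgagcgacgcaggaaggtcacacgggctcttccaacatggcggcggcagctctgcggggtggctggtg
Crnde: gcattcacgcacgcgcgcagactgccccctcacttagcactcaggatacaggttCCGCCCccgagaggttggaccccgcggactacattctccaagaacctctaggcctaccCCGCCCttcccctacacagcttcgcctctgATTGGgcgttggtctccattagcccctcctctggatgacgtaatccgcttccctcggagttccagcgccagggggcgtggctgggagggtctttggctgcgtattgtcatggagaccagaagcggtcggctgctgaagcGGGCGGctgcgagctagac

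Over both strands, GGGCGG stood in 56.0% of the 25 promoter windows of called genes, 59.1% of the 692 windows of tested chromosome 8 genes and 35.7% of all 32851 windows in the table. CCAAT stood in 44.0%, 38.7% and 37.4%, CACGTG in 3 of the 25, 9.83% and 7.15%, and TATAAA in 4.0%, 6.94% and 13.6%. TGACGTCA was in none of the 25 windows, in 4.62% of those of tested chromosome 8 genes and in 1.79% of all. These are matches of letters and not sites, and none of the motifs overlaps another in its letters as searched.

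Of the 1073 genes, 812 had a probe that passed the filter on dim probes, with 1163 probes, and 261 genes with 365 probes did not pass. A call required a fold change of 1.5 or more and an adjusted p under 0.05 from limma, with Benjamini-Hochberg adjustment across the 37085 retained probes. On the whole array 0.545% of probes were called, 0.256% with higher and 0.289% with lower signal in samples labelled Mrp4-null. On chromosome 8 the share was 2.67%, 31 probes, of which 9 were higher and 22 lower. By gene, 28 of 812 were called (3.45%), 9 higher (1.11%) and 19 lower (2.34%). Of the 16093 named genes on the array 0.652% were called, 0.311% higher and 0.348% lower. With the left-out genes included, 4.18% of the tested genes of chromosome 8 were called, beside 3.58% on chromosome 14 and 2.27% on chromosome 4, and 0.601% or less on every other chromosome. The median log2 difference of all chromosome 8 probes was -0.01, as it was over the array (-0.01). Genotypes were fully separated, with no overlap between their arrays, for 10.2% of the chromosome 8 probes, 56 higher and 63 lower, against 4.79% of all probes. An unadjusted p under 0.05 was reached by 11.6% of the chromosome 8 probes and 6.46% of all.

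The called genes of the set lay in 2 parts of the gene order, as the plot of differences in gene order shows. From Stxbp2 to Ckap2 near its start, 11 of 82 tested genes were called, 2 higher and 9 lower. The following 305 tested genes, from Vps36 to Il15, held no call. From Zfp330 to Kifc3, 17 of 127 tested genes were called, 7 higher and 10 lower. The 286 tested genes from Cngb1 to the end held none, nor did the 12 before Stxbp2. The end was not free of calls in every alternative, since Pdf was called without Mrp4-null array 3, without wild-type array 2 and with no fold threshold, Wfdc1 without Mrp4-null array 4, and Cdh11 by the local pooled error test. Of the 7 called genes that the rule leaves out, 5 lay between Stxbp2 and Ckap2 and 2 between Zfp330 and Kifc3. The share of non-overlapping probes was 26.1% of 111 probes from Stxbp2 to Ckap2, 3.1% of 452 in the long gap, 29.8% of 178 from Zfp330 to Kifc3, and 5.42% of 406 after it. The borders of these parts were set by the called genes themselves. The called probes, none of which overlap between genotypes, are also counted in the shares inside. The shares inside and outside are therefore descriptions.

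**Figure D1:**
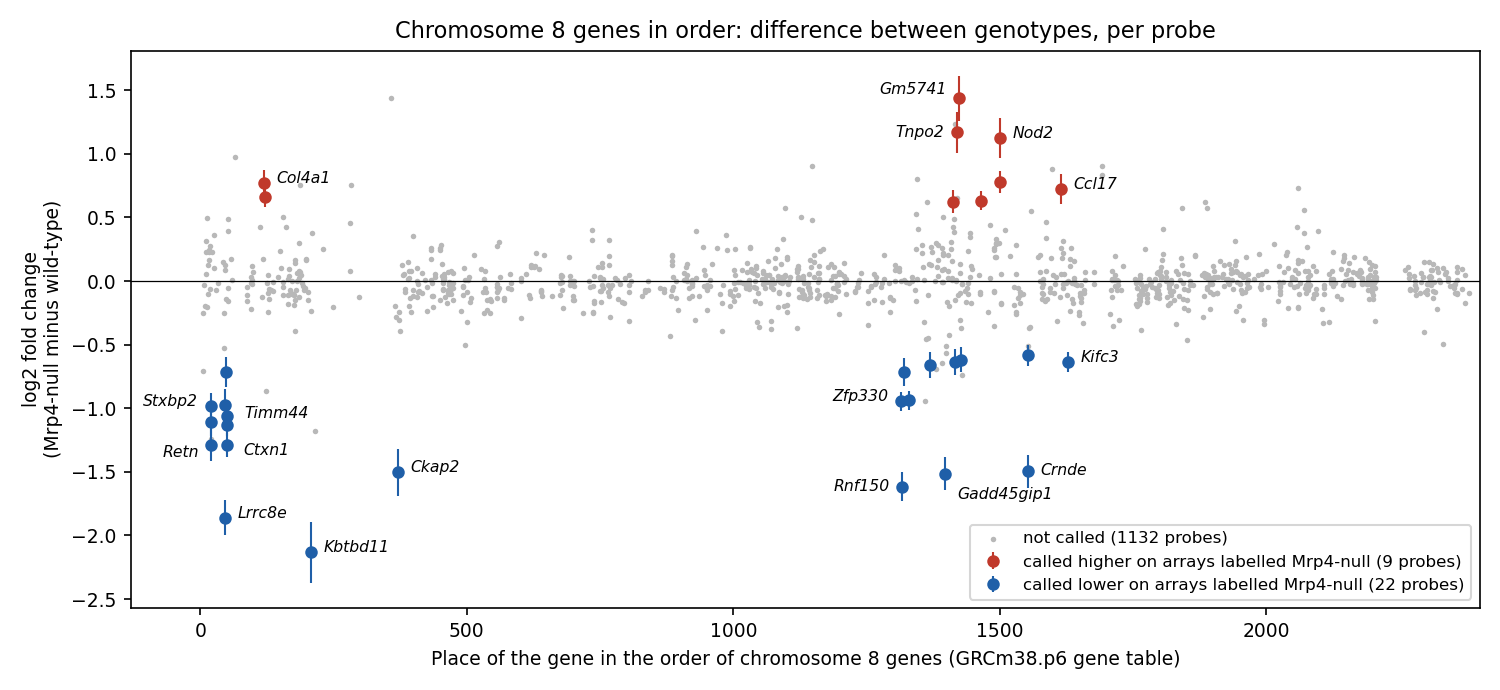
Each point is 1 of the 1163 retained chromosome 8 probes, with the place of its gene in the chromosome's gene order on the x axis and the log2 fold change, arrays labelled Mrp4-null minus wild-type, on the y axis. Filled red and blue points with bars (standard error) are the 9 probes called higher and the 22 called lower. The calls sit in 2 parts of the order, from Stxbp2 to Ckap2 and from Zfp330 to Kifc3, with 305 tested genes and no call between them.

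The 812 tested genes were also divided into 10 consecutive runs of 81 or 82, whose borders do not come from the calls. The run from Insr to Cln8 held 9 called genes, that from Arhgef10 to Ppp2cb 2, that from Ccdc124 to Ndufb7 4, that from Tecr to Rbl2 10 and that from Aktip to 4931428F04Rik 3. The other 5 runs held none. Calls in the run from Tecr to Rbl2 went both ways, 6 higher and 4 lower, while those from Ccdc124 to Ndufb7 were all lower. The share of non-overlapping probes among uncalled genes did not follow the calls in every run. It was 11.2%, 8.4%, 0.87%, 26.7% and 10.9% in the runs with calls, in chromosome order, and 3.48%, 2.54%, 8.18%, 4.63% and 0.781% in those without, so the run from Ccdc124 to Ndufb7 was low despite its 4 called genes. Among the 71 uncalled genes from Tecr to Rbl2, 26.7% of 101 probes did not overlap between genotypes, 16 higher and 11 lower, with a median absolute log2 difference of 0.19. Among the uncalled genes of the last run, from Klhdc4 to 2610044O15Rik8, the share was 0.781% of 128 probes and the median absolute log2 difference was 0.06. Of the 37 uncalled genes directly beside a called one, 14 of 49 probes (28.6%) did not overlap, against 4.79% of all retained probes. That share is near the 26.7% of all uncalled genes from Tecr to Rbl2, so it does not single out a place beside a called gene.

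**Figure D2:**
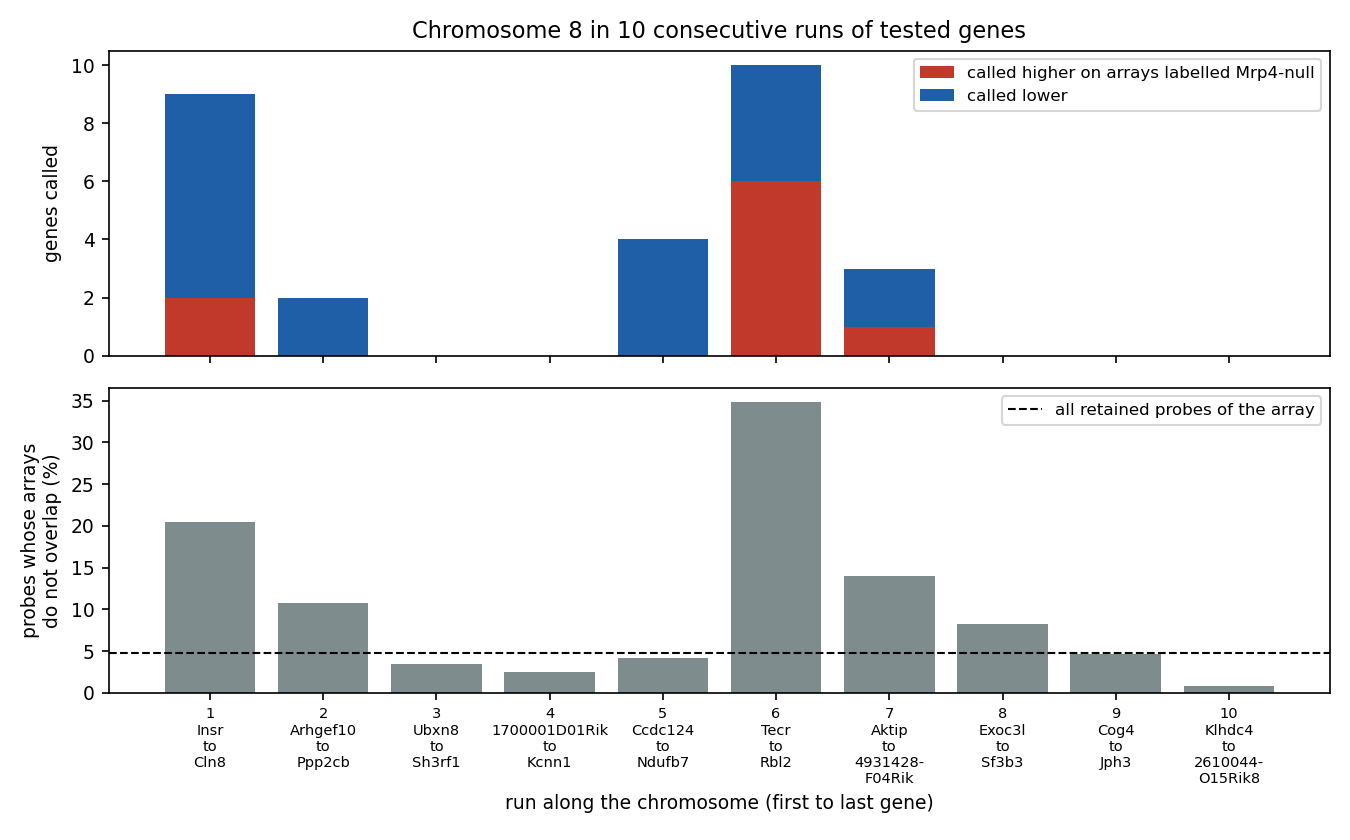
The upper bars count the genes called higher (red) and lower (blue) on the arrays labelled Mrp4-null in 10 consecutive runs of tested chromosome 8 genes, named by their first and last gene. The lower bars give the percentage of retained probes whose arrays do not overlap between genotypes, with the array-wide 4.79% as a dashed line. The highest bar is 34.8%, from Tecr to Rbl2, and the lowest is 0.781%, in the last run.

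The first called pair was Stxbp2 and Retn, which are neighbours with no gene between them in the table. Stxbp2 encodes a Munc18 protein that guides syntaxins in exocytosis. Its called probe read 8.62, 8.80, 8.86 and 8.54 on arrays labelled Mrp4-null against 9.72, 9.65, 9.83 and 9.54 on the wild-type arrays. Every array labelled Mrp4-null was below every wild-type array, and the log2 difference was -0.98 ± 0.10 (SE, adjusted p = 0.00366). Its second, much dimmer probe differed by -1.24 ± 0.26 and was not called (adjusted p = 0.115). Retn encodes resistin, a hormone known from adipose tissue and myeloid cells. Its brighter probe read 8.47, 8.64, 8.25 and 8.16 against 9.86, 9.57, 9.73 and 9.51, again with no overlap. Both Retn probes fell, by 1.29 ± 0.13 (adjusted p = 0.00293) and 1.11 ± 0.11 (adjusted p = 0.00263) on the log2 scale.

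A little further on, 5 of 6 consecutive tested genes fell together, Lrrc8e, Map2k7, Snapc2, Ctxn1 and Timm44. Lrrc8e encodes a subunit of the volume-regulated anion channel. It read 5.40, 4.76, 4.94 and 5.14 against 6.87, 7.05, 6.80 and 6.95, and fell by 1.86 ± 0.14 (adjusted p = 0.000505), or by 0.99 with normexp background correction, where it was still called. Ctxn1 encodes cortexin 1, a small membrane protein of neurons. It read 6.67, 6.62, 6.70 and 6.71 on arrays labelled Mrp4-null, within 0.1 of each other, against 8.01, 7.89, 8.17 and 7.79 on wild-type arrays. That is a difference of -1.29 ± 0.10 (adjusted p = 0.000490). Timm44 encodes the inner membrane subunit that ties the import motor of mitochondria to the translocation channel. Its brighter probe read 11.89, 11.90, 11.83 and 11.94 against 12.76, 13.02, 12.96 and 13.04. Both Timm44 probes fell, by 1.13 ± 0.09 (adjusted p = 0.000753) and 1.06 ± 0.08 (adjusted p = 0.000788). The promoter windows of Ctxn1 and Timm44 shown above hold no searched motif in common.

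The remaining members of that stretch were less clear. Snapc2, a subunit of the complex that starts small nuclear RNA transcription, differed by -0.72 ± 0.12 (adjusted p = 0.0349). Map2k7, the kinase that activates JNK, had 1 called probe at -0.98 ± 0.13 (adjusted p = 0.0153) with means of 5.54 against 6.52. The difference was -0.54 with normexp, and the call was lost in 10 of the 20 alternatives that kept the fold threshold at 1.5. Its other probes, at means of 12.67 against 12.58 and 12.58 against 12.45, differed by 0.09 ± 0.08 and 0.13 ± 0.09 and were not called (adjusted p = 0.9999 for both). The Map2k7 transcripts that the bright probes read therefore gave no difference past the threshold, and the call rests on the dim probe.

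Col4a1 and Col4a2, the head-to-head pair with shared promoter bases, both rose. Col4a1 read 9.52, 9.45, 9.79 and 9.47 on the arrays labelled Mrp4-null against 8.85, 8.85, 8.79 and 8.66 on wild-type arrays. Col4a2 read 8.80, 8.87, 8.90 and 8.69 against 8.12, 8.25, 8.15 and 8.11. In both genes every array labelled Mrp4-null was above every wild-type array. The log2 differences were 0.77 ± 0.10 for Col4a1 (adjusted p = 0.0117) and 0.66 ± 0.08 for Col4a2 (adjusted p = 0.00833). The call of Col4a1 was lost when wild-type array 3 or 4 was left out, and that of Col4a2 with normexp background correction. Both calls were lost under the local pooled error test, the replicate block, the fit without both dimmest arrays (Mrp4-null 2 and wild-type 3) and the fit with Xist as a covariate. In the fit with Xist the log2 differences were 0.71 for Col4a1 (adjusted p = 0.177) and 0.63 for Col4a2 (adjusted p = 0.135). These were the 2 called genes of 13 tested for matrix and growth factors, a list whose median was -0.09 against -0.01 over the 16093 genes. Gas6, a ligand of the TAM receptors used in outer segment uptake, differed by -0.07 ± 0.08. In bulk tissue such as this, fewer cells of a type and less RNA per cell cannot be told apart.

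The single genes Kbtbd11 and Ckap2 closed the first part. Kbtbd11, which encodes a protein with kelch repeats, had the largest called difference in the set, which leaves out 7 other called genes of the chromosome. It read 8.27, 9.25, 8.55 and 8.13 against 10.61, 10.44, 11.01 and 10.66, a fall of 2.13 ± 0.24 (adjusted p = 0.00549). Its second, brighter probe did not overlap either but differed by -0.24 ± 0.08 and was not called (adjusted p = 0.517). Ckap2, a spindle protein of dividing cells, read 4.55, 3.88, 4.38 and 3.97 against 5.91, 5.82, 5.29 and 5.79 and fell by 1.5 ± 0.19 (adjusted p = 0.00980). It rose well above background on 3 of the 4 Mrp4-null arrays, and with normexp background correction the fall was 0.48 and not called (adjusted p = 0.0589).

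The second part opened with 4 falls among 6 tested genes, Zfp330, Rnf150, Tbc1d9 and Scoc. Rnf150 encodes a membrane protein with a RING finger, the fold of many ubiquitin ligases. It read 11.05, 11.41, 11.05 and 10.92 against 12.83, 12.66, 12.69 and 12.71, and fell by 1.62 ± 0.11 (adjusted p = 0.000384). That was the smallest adjusted p among the probes of the set. Scoc, a short coiled-coil protein linked to the Golgi and autophagy, fell by 0.94 ± 0.08 (adjusted p = 0.000846), with the wild-type arrays at 13.18, 13.17, 13.20 and 13.18. Zfp330, a zinc finger gene, had a probe at 11.39, 11.37, 11.32 and 11.37 against 12.41, 12.31, 12.27 and 12.23, a fall of 0.95 ± 0.07 (adjusted p = 0.000648). Its other probe had means of 9.36 against 9.37 and differed by -0.003 ± 0.12. Tbc1d9, whose product carries the domain of Rab GTPase-activating proteins, showed the same split, with 1 probe at -0.71 ± 0.11 (adjusted p = 0.0294) and the other at 0.01 ± 0.10. Zfp330 was the only called gene among 22 tested zinc finger genes, whose median was -0.001, where 3.45% of all tested genes of the set were called.

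From Podnl1 to Nod2 calls of both signs lay among each other. Gadd45gip1, which encodes a protein of the mitochondrial ribosome, read 10.09, 10.37, 9.95 and 9.96 against 11.38, 11.56, 11.81 and 11.68. It fell by 1.51 ± 0.13 (adjusted p = 0.00113), with no overlap. Podnl1, a small leucine-rich matrix protein, fell by 0.66 ± 0.10 from a low level (means 5.10 against 5.76, adjusted p = 0.0301). The difference was -0.30 with normexp, and the call was lost in 14 of those 20 alternatives. Rnaseh2a, the catalytic subunit of the enzyme that removes ribonucleotides from DNA, read 9.32, 9.38, 9.25 and 9.23 against 8.57, 8.73, 8.81 and 8.57. It rose by 0.63 ± 0.09 (adjusted p = 0.0177), and its second probe rose by 0.43 ± 0.07, past the adjusted p (0.0483) but under the fold threshold. Hook2, which links cargo to microtubules and lies beyond 1 other tested gene, fell by 0.64 ± 0.10 (adjusted p = 0.0299). Its brighter probe differed by -0.15 ± 0.07 and was not called. The call of Hook2 was lost in 14 and that of Rnaseh2a in 10 of the same 20 alternatives.

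Tnpo2, Gm5741 and Wdr83os lay within 6 tested genes. Tnpo2 encodes transportin 2, a nuclear import receptor. It read 10.39, 10.71, 10.92 and 10.21 against 9.60, 9.32, 9.40 and 9.24, and rose by 1.17 ± 0.16 (adjusted p = 0.0160). A dim second probe differed by 0.65 ± 0.29 with overlap. Gm5741, a gene known by its predicted model, read 6.78, 6.89, 6.77 and 6.55 against 5.25, 4.82, 5.66 and 5.51. Its rise of 1.44 ± 0.18 (adjusted p = 0.00893) was the largest called rise in the set. With normexp it was 0.82 and still called, below that of Tnpo2 (1.08). Wdr83os, which lies opposite Wdr83 and encodes a small membrane protein of the endoplasmic reticulum, fell by 0.62 ± 0.10 on 1 probe (adjusted p = 0.0337). It differed by -0.37 ± 0.10 on a brighter one without a call.

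The next rises included an immune pair. N4bp1, which binds the ubiquitin ligase NEDD4, read 9.44, 9.61, 9.45 and 9.51 against 8.79, 8.86, 8.94 and 8.89. It rose by 0.63 ± 0.08 (adjusted p = 0.00833). Snx20, a sorting nexin of blood cells, and Nod2, the sensor of bacterial muramyl dipeptide, are direct neighbours in the table. Snx20 read 8.08, 7.82, 7.90 and 7.80 against 7.03, 7.22, 7.14 and 7.10, a rise of 0.78 ± 0.09 (adjusted p = 0.00583). Nod2 read 8.50, 8.41, 7.96 and 8.07 against 7.18, 7.22, 6.79 and 7.26, a rise of 1.13 ± 0.16 (adjusted p = 0.0172). With Xist as a covariate none of these 3 was called, at log2 differences of 0.67 for N4bp1 (adjusted p = 0.0771), 0.79 for Snx20 (adjusted p = 0.0791) and 1.03 for Nod2 (adjusted p = 0.240). The replicate block also ended all 3 calls, the local pooled error test those of N4bp1 and Snx20, and normexp that of Snx20 (0.54). The call of Nod2 was lost as well in 4 of the 8 fits without 1 array, without both dimmest arrays and with no filter on dim probes. Blood marker levels overlapped between genotypes, at 9.58 to 10.56 against 9.54 to 10.53 over 2 retained genes, Hba-a1 and Alas2. Both are genes of red blood cells and do not measure white blood cells, whose part in these rises was not tested.

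The last called genes were Crnde, Ccl17 and Kifc3. Crnde was the only called long non-coding RNA in the set. Its probes read 6.64, 6.10, 6.64 and 6.37 against 7.92, 7.99, 7.86 and 7.96, and 6.80, 6.86, 6.78 and 6.73 against 7.29, 7.28, 7.41 and 7.53. Both were lower on every array labelled Mrp4-null, by -1.5 ± 0.13 (adjusted p = 0.00110) and -0.59 ± 0.08 (adjusted p = 0.0204). Ccl17, a chemokine that attracts T cells through CCR4, read 6.45, 6.62, 6.53 and 6.14 against 5.66, 5.88, 5.68 and 5.63. It rose by 0.72 ± 0.12, with the largest adjusted p of all called probes (0.0351). The difference was 0.42 with normexp, and the call was lost in 15 of those 20 alternatives. Kifc3, a kinesin that moves toward microtubule minus ends, fell by 0.64 ± 0.08 (adjusted p = 0.00871).

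**Figure D3:**
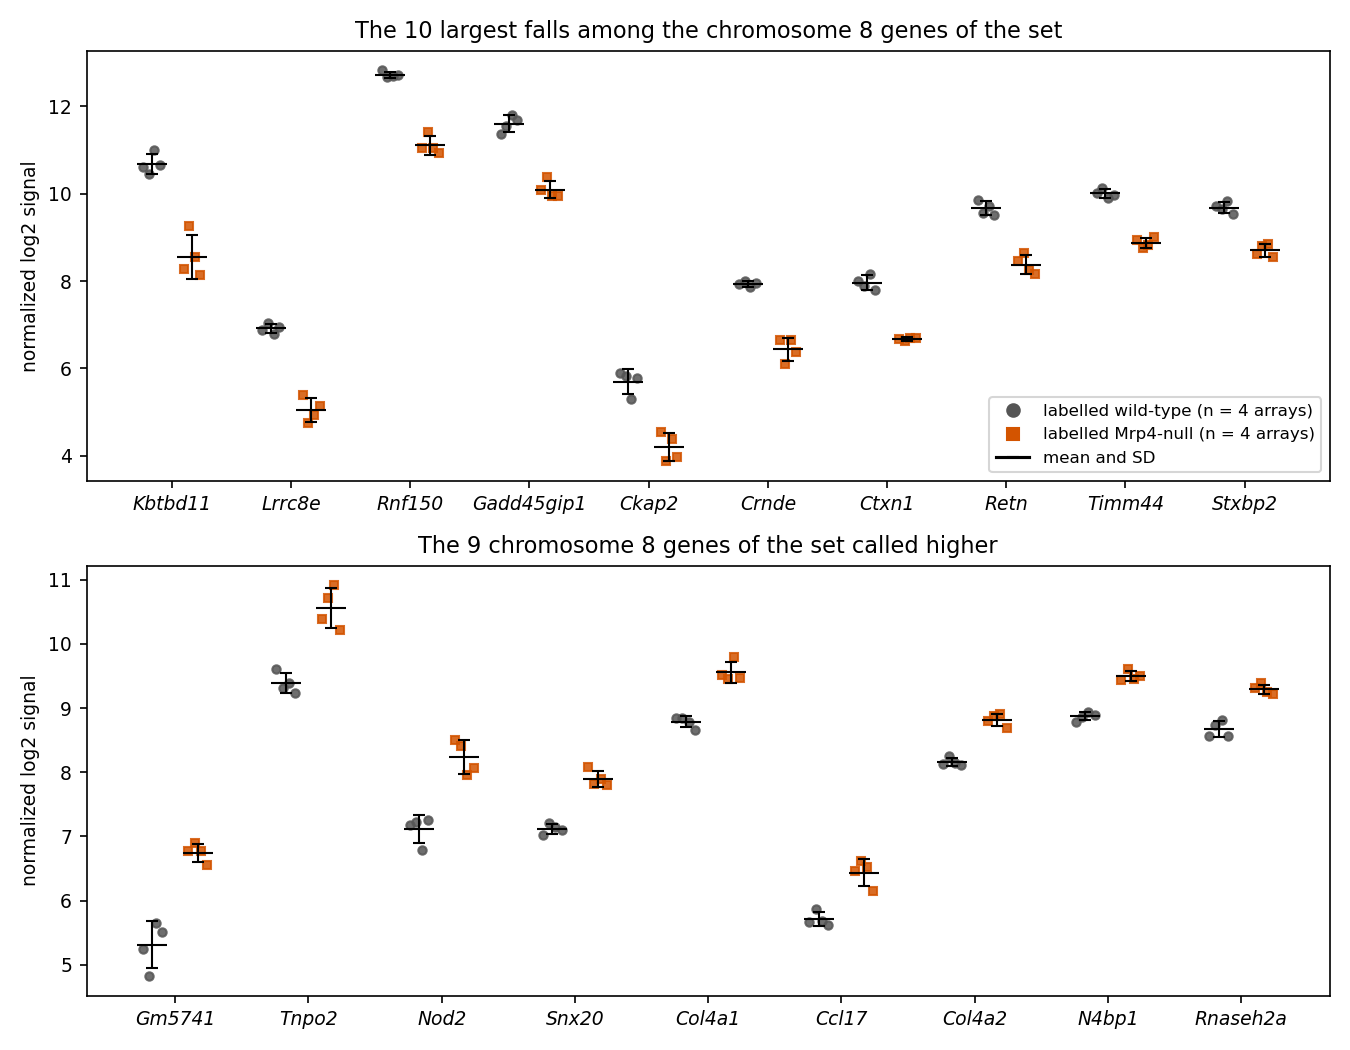
Normalized log2 signal on each of the 8 arrays for the 10 genes of the set with the largest falls (upper) and the 9 called higher (lower), by their probe with the largest fold change. Circles are arrays labelled wild-type, squares arrays labelled Mrp4-null, and black marks the mean and SD of 4 arrays. The genotypes do not overlap in any of the 19 genes, against 4.79% of all retained probes, but these genes were picked by their calls on the same arrays.

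Where a called gene had more than 1 retained probe, the probes did not always move together. Of the 28 called genes, 16 had 1 retained probe and 12 had 2 or more. In 3 of the 12, Retn, Timm44 and Crnde, 2 probes were called. In 10 of the 12 all probes had the same sign, and in Map2k7 and Tbc1d9 at least 1 probe had the other. Probes of a gene can read different transcripts of it, and which transcript each one reads was not analysed here.

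**Figure D4:**
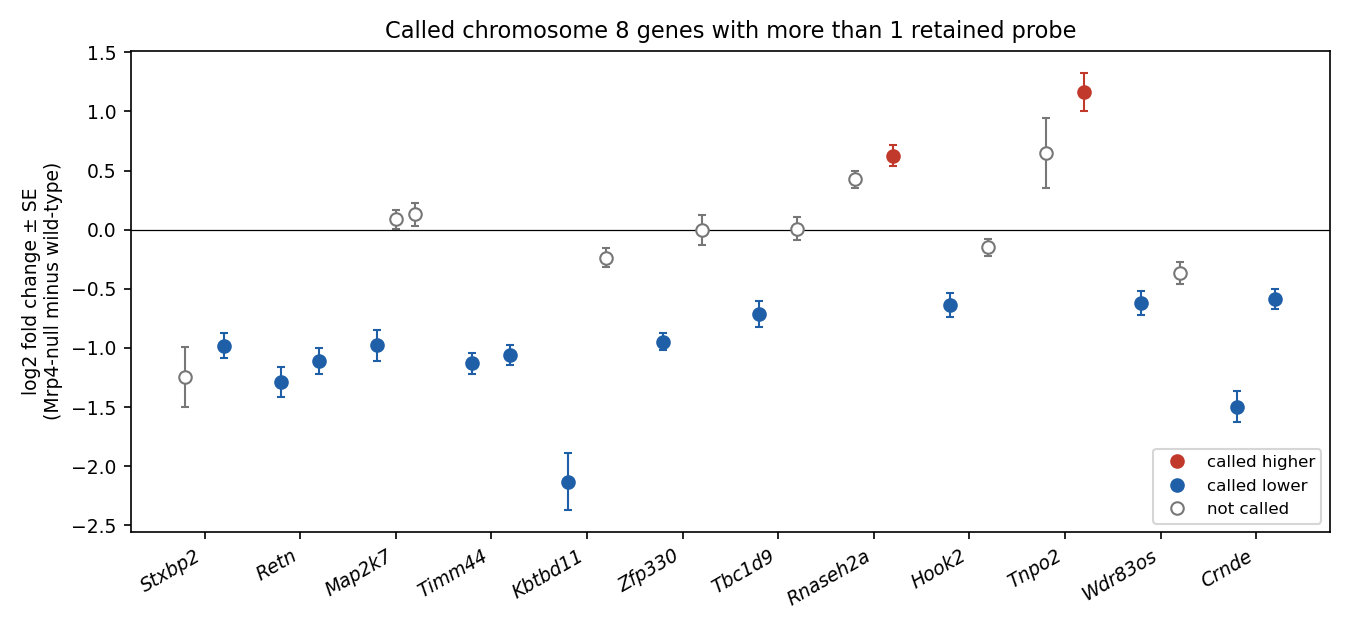
Log2 fold change with its standard error for every retained probe of the 12 called genes that have more than 1, in chromosome order. Filled points are called (red higher, blue lower) and open points are not. Both probes of Retn, Timm44 and Crnde are filled, while in Map2k7, Zfp330 and Tbc1d9 the open points lie near 0.

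Several uncalled genes lay just outside the thresholds. At a fold above 1.5, the adjusted p was 0.0597 for Mri1, an enzyme of methionine salvage (-0.69), 0.0705 for Csmd1, a membrane inhibitor of complement (-1.18), and 0.0928 for Misp3 (-0.94). The local pooled error test called Csmd1 and Misp3. Just inside were Ccl17, Snapc2 (0.0349) and Wdr83os (0.0337). With an adjusted p under 0.05, Pdf, the mitochondrial peptide deformylase, reached a fold of 1.49 and Prdx2, a peroxiredoxin that removes peroxide, a fold of 1.40, against a fold at the threshold for the weaker Crnde probe and 1.54 for Wdr83os and Rnaseh2a. In all, 22 probes passed the fold threshold alone and 3 passed the adjusted p alone. Pdf lies after the last called gene, Kifc3, where it had the smallest adjusted p (0.0139) of 406 probes.

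Several lists of retinal and housekeeping genes held no call. The gene lists are short, and 3.45% of the tested genes of the set were called, beside 0.652% of named genes on the array. Few or no calls in a list of such size therefore say little about its function. Among 9 photoreceptor and cilium genes, Cngb1, a subunit of the rod cyclic nucleotide-gated channel, averaged 16.22 ± 0.01 (SD, n = 4) against 16.46 ± 0.07, a log2 difference of -0.24 ± 0.07 (SE, adjusted p = 0.389) on its probe of highest signal. The other Cngb1 probes differed the other way, by 0.18 ± 0.11 and 0.11 ± 0.31, with overlap and no call. Grk1, rhodopsin kinase, averaged 15.03 against 15.41, a difference of -0.39 ± 0.10 (adjusted p = 0.243). Neither gene passed the test, although the arrays of the first Cngb1 probe and of the Grk1 probe did not overlap. None of the 8 mitochondrial energy genes was called. Slc25a4, the mitochondrial ADP/ATP carrier, differed by -0.05 ± 0.09 and Ndufa13, of respiratory complex I, by -0.04 ± 0.09. The 5 ribosomal protein and translation genes were not called either, with Rpl13 at 0.004 ± 0.08. Cpe, carboxypeptidase E of neuropeptide processing, differed by -0.05 ± 0.08, among 12 lipid and hormone metabolism genes without a call.

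Other lists held larger differences that did not pass in limma, although Cdh11 and Defb9 were called by the local pooled error test. Cdh11, a cadherin of mesenchymal cells and 1 of 7 tested, differed by 0.90 ± 0.20 (adjusted p = 0.153), and its list had a median of 0.01. Defb9 differed by 1.44 ± 0.38 (adjusted p = 0.289), and only 2 of 39 defensin genes and 2 of 18 carboxylesterase genes had a retained probe. Of the metallothioneins, Mt1 and Mt2 differed by 0.34 ± 0.20 and 0.46 ± 0.29, with Mrp4-null array 3 highest in both, at 15.65 and 15.23. Mt3, the third one tested, differed the other way, by -0.16 ± 0.11, and none of the 3 was called. Among 15 developmental transcription factors, Nfix differed by 0.51 ± 0.10 (adjusted p = 0.0884) and Irx6, which marks bipolar cells, by -0.37 ± 0.07 (adjusted p = 0.0929). Of 10 chemokine, cytokine and signalling genes 1 was called, Ccl17, beside 3.45% of all tested genes of the set. Cx3cl1, the neuronal ligand of the microglial receptor, differed by -0.12 ± 0.07. No gene was called among the 14 listed ubiquitin, proteasome and autophagy genes, 8 microtubule genes and 15 synaptic and neuronal genes, whose medians were -0.03, 0.02 and 0.05. The called genes Hook2, Kifc3, Rnf150, N4bp1, Scoc and Ctxn1, described above by such functions, are not in these lists.

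The calls did not all depend equally on single arrays. Of the 28 genes, 17 kept a called probe in each of the 8 fits that left out 1 array, among them Stxbp2, Retn, Lrrc8e, Ctxn1, Timm44, Col4a2, Rnf150, Gadd45gip1, Gm5741 and Crnde. The other 11, Map2k7, Snapc2, Col4a1, Tbc1d9, Podnl1, Rnaseh2a, Hook2, Tnpo2, Wdr83os, Nod2 and Ccl17, lost the call in at least 1 of them.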

How the data were processed

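Per the file headers, Agilent Feature Extraction 11.0.1.1 produced the scanner output that the authors deposited for every array. Its processed signal intensity had the background subtracted and spatial trends removed within the array, and was not normalized between arrays. The deposited series matrix, an alternative here, holds the mean processed intensity of a probe on a linear scale. Control spots and outlier spots (78 to 143 an array) were dropped, and log2 intensities of a probe's spots were averaged. Probes were kept if well above background on all measured arrays of either genotype (3 or more measured there, 2 or more in the other). Kept values were quantile-normalized and fitted by limma 3.58.1 (lmFit, eBayes; R 4.3.3) with genotype as the single term and Benjamini-Hochberg adjustment across them. A gene was called through any retained probe, and its probes were not merged. On an array, 66.0% to 69.9% of probes were well above background and no spot was saturated. The number of arrays, 4 a genotype, limits the precision.

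Accessions matched the gene table (GRCm38.p6) for 32994 probes. It served for names and gene order, since the array design uses an older build (mm9). Named were all called genes, with values per array for the largest changes, the brightest genes of each list and the nearest neighbours of the thresholds. Members, lists and rules were chosen with earlier results of these data known. The scripts were tested on simulated data. Alternatives were scaling to the 75th percentile, cyclic loess, normexp (offset 50), other filters on dim probes, outlier spots retained, the series matrix, the methods' local pooled error test (written here), a variance trend with robust fitting, a replicate block, omission of single arrays, other fold limits, 1 probe a gene, and 20 runs. After the data were seen, a fit without both dimmest arrays and a fit with Xist as a covariate were added. In the local pooled error test the p-values were Benjamini-Hochberg adjusted here, while the methods name a p under 0.05 and no adjustment. Its calls here are therefore not those of the authors' rule.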

Additional observations from a re-analysis of the deposited data

Results flagged for a closer look

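Of 62 groups of 4 arrays screened, 1 probe and genotype at a time, 2 held an array far from the other 3, where chance gives about 1 in 20. For Snapc2 wild-type array 3 read 12.21 and the others 11.96 to 11.98, so its gap was 0.914 of the group's range. For Nod2 the same array was low, at 6.79 against 7.18 to 7.26, a gap of 0.831 of the range. Snapc2 lost the call without that array, as it did in 7 of the 8 fits that left out 1 array. Nod2 kept it without that array but lost it without Mrp4-null array 1 and without wild-type arrays 1, 2 and 4.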

How the results depend on the processing

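Under the 75th percentile shift, cyclic loess, normexp, both filters, kept outlier spots, the deposited table, the local pooled error test, the trend with robust variances, no fold threshold and 1 probe a gene, between 19 and 30 genes were called, against 28, and no called probe changed sign under any alternative. The median difference of all probes of the chromosome stayed between -0.02 and 0.001. At least 4 and at most 6 of the 10 runs held a call, and 7 of 20 did. The local pooled error test called 22 genes, 16 of them shared. Leaving out 1 array gave 19 to 29 probes and 17 to 26 genes, with the fewest without wild-type array 4, where 12 probes lost the call (adjusted p 0.0555 to 0.153). Without Mrp4-null arrays 1, 2, 3 and 4, 9, 3, 6 and 7 probes lost it, and without wild-type arrays 1, 2 and 3, 8, 10 and 10. Without both dimmest arrays 21 probes and 19 genes were called, 18 of these genes shared with the 28. A fold of at least 2 left 14 probes and 12 genes. With Xist as a covariate, 12 probes and 10 genes were called, 1 gene higher and 9 lower. The sample numbers are not stated to pair the samples, and the deviations of same-numbered arrays correlated at -0.29, -0.69, 0.03 and 0.41. With the replicate block 10 probes and 9 genes were called, all lower, and the cause was not tested. In 8 genes, Retn, Lrrc8e, Ctxn1, Timm44, Zfp330, Rnf150, Gadd45gip1 and Crnde, a probe was called in every setting other than the fold of at least 2. Signal over background limits Lrrc8e, Ckap2, Podnl1, Gm5741, Ccl17 and the called Map2k7 probe, which lay at the dim end in at least 1 genotype.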

Other observations

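The array also carries 271 probes named by a chromosome 8 position (mm9) and not by a gene, of which 155 were retained. In the samples labelled Mrp4-null, 5 of these were called higher (3.23%) and 1 lower (0.645%), beside 0.256% and 0.289% of all retained probes. The largest rise was for the interval chr8:85952719-85958369, reverse strand, which read 8.88, 8.86, 8.94 and 8.67 against 7.20, 7.15, 7.11 and 7.08, a log2 difference of 1.71 ± 0.08 (SE, adjusted p = 3.71e-05 in limma). A probe of chr8:85609155-85615170, reverse strand, fell by 1.47 ± 0.21 from a level of 5.35 (adjusted p = 0.023). On the arrays labelled Mrp4-null it read 3.46, 4.36, 3.56 and 4.14, at the dim end, so the size of the fall is uncertain. Higher were also chr8:74820025-74833350 on the forward strand (1.15 ± 0.18), chr8:19792940-19798868 on the forward strand (0.84 ± 0.09) and chr8:72105642-72105922 on the reverse strand, where both probes rose (0.75 ± 0.12 and 0.73 ± 0.10). None of the 6 probes overlapped between genotypes, against 4.79% of all retained probes without overlap, but these 6 were picked by their calls on the same arrays. Their places relative to the genes above were not analysed, because the builds differ.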
